A study of Mus musculus with 70 samples.

Results

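Common innate lymphoid progenitors (CILP) sorted from bone marrow of Id2-/- mice were compared directly with CILP from Tcf7-/- mice (TCF7 in the labels). The 4 libraries were those that the labels of batch 1 give the cell type CILP and the source Id2 (2 libraries) or TCF7 (2 libraries), of 70 samples in the series. The whole series covers wild-type, Id2-/- and Tcf7-/- progenitors, and libraries labelled Nfil. They run from CLP (common lymphoid progenitors) to progenitors of group 2 innate lymphoid cells, 100 cells per sample, in 2 batches. Transcripts were counted by CEL-seq, which sequences the 3′ ends of polyadenylated RNA. The groups compared beside the 4 libraries were wild-type CILP (3), Id2-/- CLP (2) and Tcf7-/- CLP (3), all of batch 1. The fit held all 22 cell libraries of batch 1, wild-type CLP and later progenitors among them. Control libraries of batch 1 and 2 Tcf7-/- CILP libraries of batch 2 are described as well. Strain, age and the deleted part of each gene are not given in the sources used here. Whether the replicates of a group came from different mice is not labelled, and the p-values therefore rest on a spread between libraries that may be technical.

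Innate lymphoid cells (ILC) are lymphocytes without rearranged antigen receptors, and they arise from progenitors that switch on a shared set of transcription factors. Id2 encodes a helix-loop-helix protein without a DNA-binding region that holds E proteins in inactive pairs, and so restrains the B and T cell programmes that E proteins drive. Tcf7 encodes TCF-1, a DNA-binding factor that acts early in ILC and T cell development and is known to activate genes such as Gata3 and Bcl11b.

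The Id2 knockout CILP libraries held 160289 and 224239 gene counts and the Tcf7 knockout CILP libraries 63853 and 49365. Wild-type CILP held 42266 to 139930 counts, and all 22 cell libraries of batch 1 held 42266 to 274024. The 8 libraries of the batch labelled only as control carried 51 to 9439 counts. Levels are given as CPM, a count scaled to a library of fixed size by the library total and a TMM factor, so 1 count was worth 6.31 and 4.66 CPM in the Id2 knockout libraries and 13.6 and 19.8 CPM in the Tcf7 knockout libraries. Replicate libraries differed by 6.48 (Id2 knockout) and 12.5 (Tcf7 knockout) times their counting noise. Amplification can add to that spread, so these values do not tell technical from biological replicates. In bulk samples such as these, fewer cells of a type and less RNA per cell cannot be told apart.

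The second Tcf7 knockout library stood apart. Erythroid and megakaryocyte markers made up 3.67% of its counts (95% Wilson interval 3.51 to 3.84), against 0.0298% (0.0191 to 0.0465) in the first Tcf7 knockout library and 0.256% (0.232 to 0.282) and 0.27% (0.249 to 0.292) in the Id2 knockout libraries. Myeloid markers made up 1.19% (1.1 to 1.29) there, 0 of 63853 counts in the first Tcf7 knockout library (Wilson interval up to 0.00602%, and up to 0.0047% by the limit of 3 counts that a count of 0 allows), and 0.0686% (0.0569 to 0.0827) and 0.0419% (0.0343 to 0.0513) in the Id2 knockout. Dendritic cell markers made up 0.348% (0.3 to 0.404) there and 0.0522% to 0.128% in the other 3 libraries. Mast cell, basophil and eosinophil markers went the other way, at 0.449% (0.418 to 0.483) and 0.321% (0.299 to 0.345) of Id2 knockout counts and 0.058% (0.042 to 0.0799) and 0.0223% (0.0124 to 0.0399) of Tcf7 knockout counts, while a wild-type library reached 0.479% (0.431 to 0.531). These intervals cover counting error only. Transcripts of the mitochondrial genome, a sign of RNA or cell quality, were 0.172% and 0.354% of counts in the Id2 knockout, 0.268% and 0.8% in the Tcf7 knockout and 1.08% to 1.33% in wild type. For some calls and counts that were lost or moved widely without the second Tcf7 knockout library, the value without it is given. For others the text says that the call was lost, or in how many fits with 1 library left out it held.

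**Figure D1:**
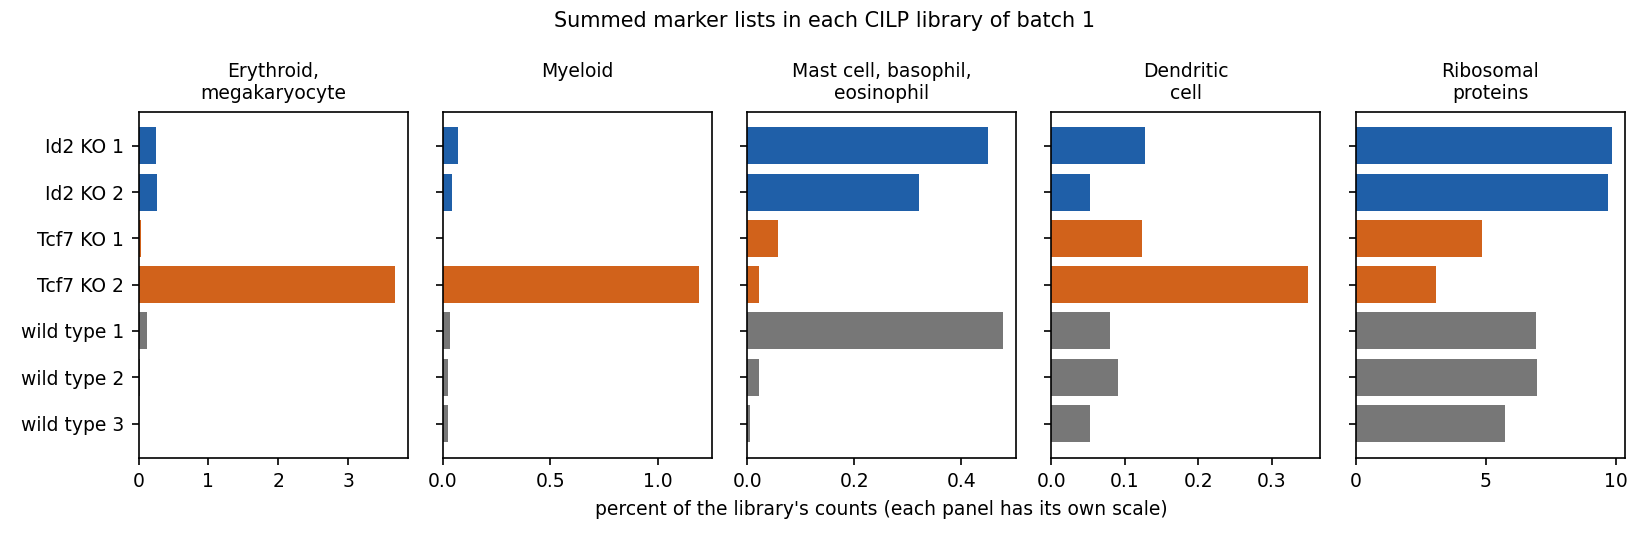
Share of each CILP library's gene counts (percent, each panel with its own scale) taken by summed marker lists of other cell types and by ribosomal protein genes, in Id2 knockout (blue), Tcf7 knockout (orange) and wild-type (grey) libraries of batch 1. Erythroid markers reach 3.67% and myeloid markers 1.19% in the second Tcf7 knockout library alone, and ribosomal protein genes are highest in both Id2 knockout libraries.

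Id2 transcript, from chr12:25093799-25096092 (GRCm38.p6), was at 120 and 27.9 CPM in the Id2 knockout libraries (19 and 6 counts). It was at 1999 and 258 CPM in the Tcf7 knockout and at 1542, 1108 and 2586 CPM in wild-type CILP. Both Id2 knockout libraries lay below every other CILP library, and the Tcf7 knockout libraries were spread widely. The difference had a log2 fold change of −3.96 ± 0.77 (SE), a 15.6-fold lower level in the Id2 knockout, with an adjusted p of 6.93e-04 (edgeR quasi-likelihood test, Benjamini-Hochberg over all genes tested, as throughout). Without the first Tcf7 knockout library it was −1.82 (adjusted p = 0.363), and without the second Id2 knockout library −3.26 (adjusted p = 0.0731). Libraries compared 2 against 2 cannot give an exact permutation p below 0.333, which is the p for Id2 (two-sided).

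Tcf7 transcript did not separate the knockouts. It was at 25.2 and 69.8 CPM in the Id2 knockout and at 27.2 and 39.6 CPM in the Tcf7 knockout (log2 fold change 0.53 ± 1.67, adjusted p = 0.951, exact permutation p = 1). Wild-type CILP held 178.5, 393 and 228 CPM, above all 4 knockout libraries, although neither knockout passed the test against wild type (adjusted p = 0.607 for Id2 and 0.444 for Tcf7). A tag at the 3′ end that lies outside a deleted part checks nothing, so counts left at Id2 or Tcf7 neither support nor contradict the labels.

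Markers that separate CILP from CLP were as follows in the 4 libraries. Flt3, the receptor of multipotent and common lymphoid progenitors, was at 0 in all 4 CILP libraries and at 186.5 to 344 CPM in the 5 knockout CLP libraries. Blnk, an adaptor of B cell receptor signalling, was at 0 to 59.5 CPM in these CILP libraries and at 194 to 426.5 CPM in CLP. Gata3, the factor required for ILC, was at 101, 140, 707 and 99.1 CPM in CILP (Id2 knockout first) and above 0 in 1 of the 5 CLP libraries, at 64.5 CPM. Zbtb16, which encodes the PLZF factor of ILC precursors, was at 56.8 and 23.3 CPM in the Id2 knockout and at 258 and 0 CPM in the Tcf7 knockout, and at 0 in CLP. Markers of CLP were mixed in the second Tcf7 knockout library. Ly6d, a marker of B-primed CLP, was at 1308 CPM there and Rag1, a recombinase subunit, at 79.3 CPM, while the first held 0 of both. In the second library Flt3 and the B lineage gene Ebf1 were at 0. Dntt, a polymerase of antigen receptor joining, was at 19.8 CPM there, the worth of 1 count. Ly6d was at 606 and 140 CPM in the Id2 knockout libraries and at 0 in wild-type CILP.

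Of 8403 genes tested, 105 differed between the 2 knockouts (1.25%), 57 higher in the Id2 knockout (0.678%) and 48 lower (0.571%). The direction of this split depended on scaling. With DESeq2 size factors, 86 genes were called and 26.7% of them were higher, against 54.3% with TMM. That scaling also moved the median over all genes from 0.43 to 0.0039 (log2). Differences of broad gene groups are therefore read below against the median of all genes. Counts called within a list are to be read against the shares of all genes given above. With TMM and genes at 0 in a group set to their bounds, the median over all genes was 0.05. Without the second Tcf7 knockout library 60 genes were called, 42 of them among the 105, and without the second Id2 knockout library 26 were, 25 of them among the 105. There were 8 genes that passed with each of the 4 libraries left out in turn. Among them were Dntt and Rpsa, higher in the Id2 knockout, and Ccr2, H2-Aa, S100a4, Il18r1 and Ncf1, lower in it. They were singled out after their values were seen, and no gene of the 105 passed under every alternative.

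**Figure D2:**
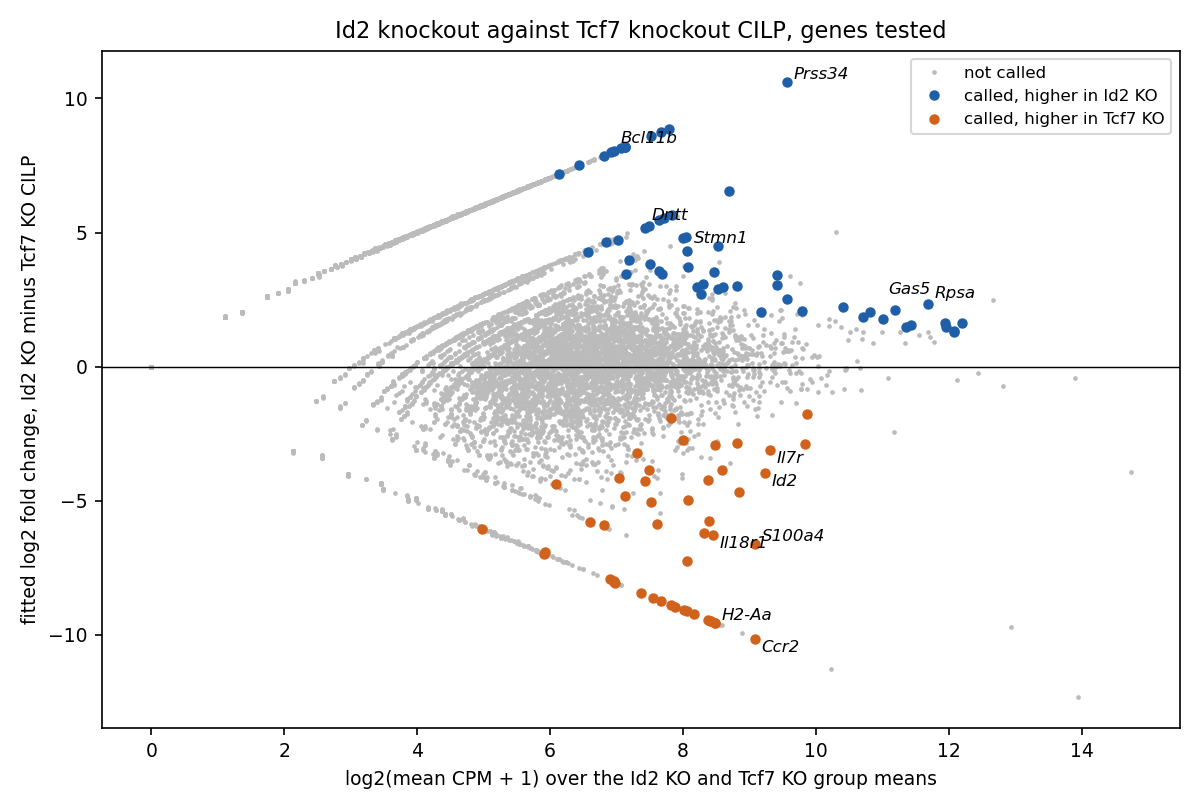
Fitted log2 fold change (Id2 knockout minus Tcf7 knockout CILP) against log2(mean CPM + 1) for 8403 genes, with the 57 called higher in blue and the 48 called lower in orange. The straight outer bands are genes at 0 in 1 group, whose fitted values depend on the prior count, and the ribosomal gene Rpsa and the RNA Gas5 lie among the highest levels.

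Ccr2 was not detected in Id2 knockout CILP. This gene, at chr9:124101918-124109140, encodes a chemokine receptor for CCL2 that is found on ILC precursors and monocytes. Both Id2 knockout libraries held 0 counts, against 1564 and 595 CPM (115 and 30 counts) in the Tcf7 knockout and 319, 529 and 1365 CPM in wild-type CILP. All 5 other libraries were thus above both Id2 knockout libraries. The level in the Tcf7 knockout was at least 134-fold higher, against 3 counts over the Id2 knockout group (adjusted p = 4.66e-10). Leaving out any 1 of the 4 libraries gave adjusted p-values from 6.36e-11 to 4.35e-04, and Ccr2 alone still passed when both batches were fitted together (adjusted p = 2.83e-04). Against wild type it was lower in the Id2 knockout (adjusted p = 4.24e-09), and in the Tcf7 knockout the adjusted p was 0.768. Markers of myeloid cells, some of which carry Ccr2, were at 0 counts in the Tcf7 knockout library with 1564 CPM of Ccr2 and at 1.19% of counts in the one with 595 CPM, and their part in the Ccr2 difference was not tested.

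The receptors for interleukin 18 and interleukin 7 were also lower in the Id2 knockout. Il18r1, the interleukin 18 receptor chain of ILC precursors, was at 6.31 and 9.31 CPM in the Id2 knockout, 897 and 476 CPM in the Tcf7 knockout and 765, 550 and 1097 CPM in wild type. The Tcf7 knockout libraries lay within reach of wild type and the Id2 knockout libraries far below. The ratio was 90.3 (counting interval 29.9 to 446, from 3 against 90 counts, adjusted p = 1.36e-05). Il7r, the interleukin 7 receptor chain that lymphoid progenitors need, was at 183 and 83.8 CPM in the Id2 knockout and at 1972 and 297 CPM in the Tcf7 knockout. Both wild-type and Tcf7 knockout libraries were above the Id2 knockout, with wild type at 1020, 1251 and 1345 CPM (log2 fold change −3.10 ± 0.55, adjusted p = 1.36e-05). The call on Il7r rested on 2 libraries: the adjusted p was 0.495 without the first Tcf7 knockout library and 0.0636 without the second Id2 knockout library. Of 20 cytokine receptor genes tested, these 2 fell and none rose, with a median log2 fold change of −0.81 against 0.43 over all genes. With genes at 0 set to their bounds, these medians were −0.14 and 0.05. Summed over the list, CPM were 2827 and 1676 in the Id2 knockout and 5915 and 2438 in the Tcf7 knockout, so the groups overlapped.

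The next 3 genes were chosen after their values were seen. S100a4, a calcium-binding protein of motile cells, was at 0 and 18.6 CPM in the Id2 knockout and at 1550 and 595 CPM in the Tcf7 knockout (log2 fold change −6.60 ± 1.14, adjusted p = 9.18e-06). Ncf1, a subunit of the phagocyte oxidase, had no count in the Id2 knockout and 258 and 238 CPM in the Tcf7 knockout (at least 30.9-fold higher, adjusted p = 4.47e-05). Cd52, a small surface glycoprotein of lymphocytes, was at 278 and 154 CPM against 1917 and 1288 CPM (log2 fold change −2.90 ± 0.55, adjusted p = 1.36e-04). In all 3 the libraries of the 2 knockouts were apart, as they were for 96 of the 105 called genes. Calls select for such separation, so it adds nothing to them, and its share over all genes tested is not given here. Wild-type S100a4 (229 to 679 CPM) and Cd52 (683 to 1522 CPM) sat between or with the Tcf7 knockout. Tnfrsf25, the DR3 receptor for TL1A, which activates ILC, had no count in the Id2 knockout and 313 and 1011 CPM in the Tcf7 knockout (at least 82.3-fold higher, adjusted p = 3.12e-04). It was at 62.1 to 127.5 CPM in wild type, and the adjusted p was 0.0731 without the second Id2 knockout library.

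Of 16 transcription factors of ILC tested, 1 fell and 1 rose (median log2 fold change −1.21, against 0.43 over all genes). Without the first Tcf7 knockout library that median was 1.54, against 1.60 over all genes, and no member was called. The called members were Id2 itself, lower, and Bcl11b, higher in the Id2 knockout. Tox, needed for early ILC progenitors, was at 56.8 and 41.9 CPM against 585 and 337 CPM and did not pass (adjusted p = 0.0783). Nor did Gata3 (adjusted p = 0.355), Zbtb16 (0.61), Lef1, a relative of TCF-1 (31.6 and 9.31 against 394 and 317 CPM, adjusted p = 0.286), Rora (0 and 4.66 against 177 and 0 CPM, 0.279), Ets1 (0.738) or Nfil3 (1). For Gata3 and Zbtb16 the second Tcf7 knockout library lay below both Id2 knockout libraries and the first above them.

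Genes of group 3 ILC as a list had the lowest median, −6.24 over 11 tested (−3.08 with genes at 0 set to their bounds), yet none was called by edgeR. Of the 11, 9 were fitted below 0 and 7 had an unadjusted p under 0.05, while DESeq2 called 1 lower and limma-voom 4 lower. Il1r1, an interleukin 1 receptor, had no count in the Id2 knockout and 435 and 99.1 CPM in the Tcf7 knockout (adjusted p = 0.0811), and Ccr6, a chemokine receptor, none against 503 and 19.8 CPM (adjusted p = 0.1). Il22 and Il17a, the cytokines of mature group 3 cells, were at 0 in all 4 libraries. Without the first Tcf7 knockout library the list's median was 0 over 9 genes. Group 2 ILC genes gave no call among 11 tested by edgeR, DESeq2 or limma-voom (3 with an unadjusted p under 0.05 in edgeR), and Il5, Il13 and Arg1 were at 0 throughout. Among group 1 ILC and NK genes, 1 of 13 was called, Il18r1. Receptors of other groups were also at 0 in both Id2 knockout libraries. Xcr1, a chemokine receptor, was at 503 and 238 CPM in the Tcf7 knockout (at least 46.1-fold higher, adjusted p = 0.00755), Il17re, an interleukin 17 receptor chain, at 571 and 238 CPM (at least 50.3-fold, adjusted p = 0.0124) and Klrb1b, an NK receptor, at 449 and 614 CPM (at least 66.1-fold, adjusted p = 0.0123). None of these 3 held its call in more than 1 of the 4 leave-one-out fits. Adgrg5, an adhesion receptor (1129 and 297 CPM in the Tcf7 knockout), Dll1, a Notch ligand (1197 and 159 CPM), Asb2, a ubiquitin ligase subunit (707 and 654 CPM), Cacna1g, a calcium channel (340 and 694 CPM), and Psd2 (721 and 178 CPM) likewise had no count in the Id2 knockout. The bounds ran from at least 55.9-fold for Psd2 (adjusted p = 0.0368) to at least 88.7-fold for Adgrg5 (adjusted p = 6.6e-04). Adgrg5 and Dll1 kept their call in 1 of 4 leave-one-out fits, Asb2 and Cacna1g in 0 of 4, and Psd2 in 0 of the 3 that tested it.

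**Figure D3:**
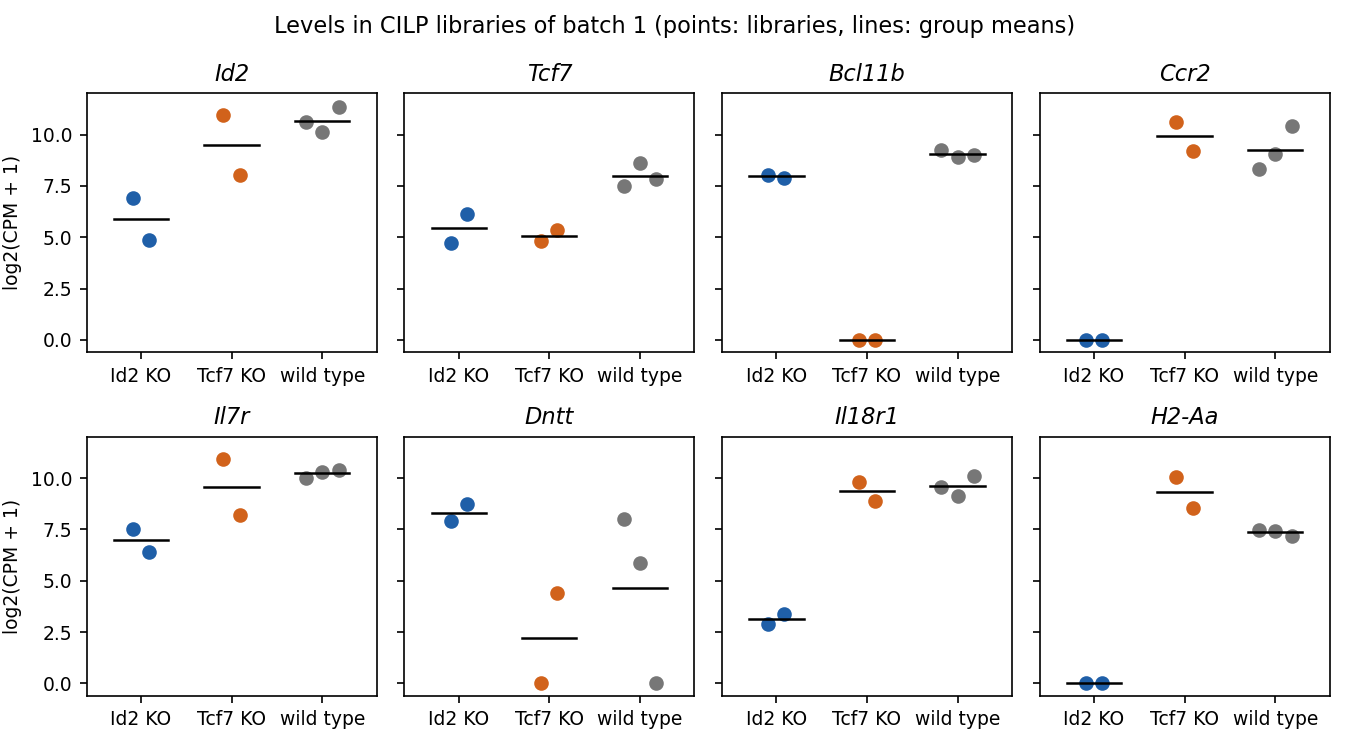
Levels of 8 genes as log2(CPM + 1) in each CILP library of batch 1 (points) with the group means (lines), for Id2 knockout, Tcf7 knockout and wild type. Ccr2 and H2-Aa are at 0 in both Id2 knockout libraries, Bcl11b is at 0 in both Tcf7 knockout libraries, and Tcf7 is at like levels in both knockouts, below wild type.

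Of 14 genes of MHC class II and antigen presentation tested, 3 were lower in the Id2 knockout, H2-Aa, H2-Eb1 and Cd74. Of all genes tested, 0.571% were lower. Class II genes encode the chains that present antigen to CD4 T cells and the invariant chain that guides them, and ILC of group 3 are known to carry them beside dendritic and B cells. H2-Aa, the class II α chain, was at 0 in both Id2 knockout libraries, at 1047 and 377 CPM in the Tcf7 knockout and at 178.5, 171.5 and 145 CPM in wild type (at least 88.6-fold higher in the Tcf7 knockout, adjusted p = 9.18e-06). H2-Eb1, a class II β chain, was at 0 against 489.5 and 654 CPM, with 0, 92.9 and 62.1 CPM in wild type (at least 71.1-fold, adjusted p = 3.12e-04). Cd74, the invariant chain, was at 0 and 4.66 against 925 and 139 CPM (ratio 226, counting interval 39.3 to 9034, adjusted p = 0.00181). For all 3 the Tcf7 knockout libraries were above both the Id2 knockout and wild type. None of the 14 rose, 11 were not called, and the median log2 fold change was −0.41, against 0.43 over all genes. Ciita, the master regulator of class II, and the peptide loaders H2-DMa and H2-DMb2 were at 0 in all 4 libraries. H2-Aa passed with each library left out, H2-Eb1 was at an adjusted p of 0.0731 without the second Id2 knockout library, and Cd74 passed in 1 of 4 such fits. Dendritic cell markers were 0.124% of counts in the first Tcf7 knockout library, where H2-Aa was highest, and 0.128% in an Id2 knockout library with no H2-Aa, and their part in the class II difference was not tested.

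The promoters of the 2 called class II genes that had no count in the Id2 knockout are shown because they moved together. They were also chosen because both hold the Y box of class II promoters (CTGATTGG, an inverted CCAAT box, searched on both strands, here in capitals). The sequences are 5′ to 3′ from RefSeq, GRCm38.p6, 250 bases before to 50 after the gene's start, H2-Aa on the minus strand of chr17:34287774-34288073 and H2-Eb1 on the plus strand of chr17:34305617-34305916.
H2-Aa: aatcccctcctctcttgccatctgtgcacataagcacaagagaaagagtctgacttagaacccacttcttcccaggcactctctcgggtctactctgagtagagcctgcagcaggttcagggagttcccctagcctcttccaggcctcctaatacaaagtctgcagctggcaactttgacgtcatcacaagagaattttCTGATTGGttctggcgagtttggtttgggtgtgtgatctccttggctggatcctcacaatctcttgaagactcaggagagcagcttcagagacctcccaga
H2-Eb1: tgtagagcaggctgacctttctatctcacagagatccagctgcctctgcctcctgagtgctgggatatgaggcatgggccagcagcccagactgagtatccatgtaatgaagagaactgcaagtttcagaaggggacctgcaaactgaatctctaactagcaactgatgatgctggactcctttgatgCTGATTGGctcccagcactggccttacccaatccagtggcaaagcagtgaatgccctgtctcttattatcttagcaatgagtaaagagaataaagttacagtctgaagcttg
The match began at position −51 in H2-Aa and −62 in H2-Eb1, counted from the gene's start. It was held by 4.03% of all 31396 promoters outside X and Y, by 5.65% of 8471 promoters of genes tested, and by 6 of the 12 genes of the presentation list that have a promoter in the table. The match is a description of these letters and not a site shown to be bound.

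The converse pattern was that of Bcl11b, the T cell and ILC2 commitment factor at the minus strand of chromosome 12. It was at 259 and 237.5 CPM in the Id2 knockout, at 0 in both Tcf7 knockout libraries and at 599, 479 and 517 CPM in wild-type CILP. Of these 7 CILP libraries, the Tcf7 knockout libraries were the ones without a count. The Id2 knockout level was at least 10.2-fold higher (adjusted p = 0.00117), a bound limited by the depth of the Tcf7 knockout, and the adjusted p was 0.0634 without the first Tcf7 knockout library. Against wild type Bcl11b was lower in the Tcf7 knockout (adjusted p = 2.35e-05) and at an adjusted p of 0.647 in the Id2 knockout. Of 15 genes of the T lineage list tested, 1 was called, Bcl11b. Cd3d, a chain of the T cell receptor complex, was at 114 and 107 CPM against 0 and 0 (adjusted p = 0.252), and Thy1, a surface glycoprotein of T cells and ILC, at 50.5 and 135 against 1169 and 99.1 CPM (adjusted p = 0.172). In a separate list of mature T cell markers, 1 of 4 tested was called, Trdc, the constant segment of the δ receptor chain. It was at 202 and 74.5 CPM against 0 and 0 (at least 5.71-fold higher, adjusted p = 0.0425). The call held in none of the 4 leave-one-out fits.

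The promoters of Bcl11b and Ccr2 are shown for the letters that TCF-1 and E proteins are known to favour. These 2 were chosen from many genes without a count in 1 knockout. Of the called genes, 21 had no count in the Id2 knockout and 13 had none in the Tcf7 knockout. Capitals mark CTTTGA, part of the TCF motif, in Bcl11b (minus strand of chr12:108003365-108003664) and the E box CANNTG in Ccr2 (plus strand of chr9:124101933-124102232), both searched on both strands.
Bcl11b: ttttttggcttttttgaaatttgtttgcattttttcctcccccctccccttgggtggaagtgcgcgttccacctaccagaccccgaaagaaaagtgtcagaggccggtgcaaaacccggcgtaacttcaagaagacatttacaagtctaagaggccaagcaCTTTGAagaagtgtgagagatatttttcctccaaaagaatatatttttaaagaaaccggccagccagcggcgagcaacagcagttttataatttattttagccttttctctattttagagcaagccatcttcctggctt
Ccr2: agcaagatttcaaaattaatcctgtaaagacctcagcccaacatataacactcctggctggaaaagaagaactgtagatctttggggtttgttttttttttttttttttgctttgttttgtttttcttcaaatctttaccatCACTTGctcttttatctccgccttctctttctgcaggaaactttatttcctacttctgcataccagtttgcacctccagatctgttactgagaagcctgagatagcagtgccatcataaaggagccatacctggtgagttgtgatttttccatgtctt
The TCF letters began at position −89 in Bcl11b and were held by 15.9% of all promoters outside X and Y. The E box began at position −108 in Ccr2 and was held by 72.2% of them. Neither count sets these promoters apart, and the files hold no binding data.

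Genes that E proteins activate went in both directions, 2 higher and 1 lower of 12 tested, against 0.678% and 0.571% of all genes. The list's median was 0, against 0.43 over all genes, or 0.05 with genes at 0 set to their bounds. Dntt, the template-free polymerase of antigen receptor joining and a target of E proteins, was at 240 and 424 CPM in the Id2 knockout, 0 and 19.8 CPM in the Tcf7 knockout and 255, 57.2 and 0 CPM in wild type. The Id2 knockout was above the Tcf7 knockout in every pairing of libraries, a separation that calls select for (96 of the 105 called genes). The ratio for Dntt was 42.9 (counting interval 7.56 to 1706, 129 against 1 counts, adjusted p = 6.73e-08). Of the 8 control libraries 1 held 14 Dntt counts. Cxcr4, the homing receptor for CXCL12, was at 246 and 112 against 0 and 19.8 CPM (ratio 20.9, counting interval 3.62 to 840, adjusted p = 0.0472), and its call did not hold in any leave-one-out fit. The lower member was Il7r. Rag1 was at 31.6 and 9.31 CPM in the Id2 knockout and 0 and 79.3 CPM in the Tcf7 knockout, without separation. Early B lineage genes gave 1 call of 14, Vpreb3. It was at 238 CPM in the second Tcf7 knockout library and 0 in the other 3 (adjusted p = 0.0415), so that without that library it was at 0 in all that remained. Ebf1, Pax5 and Igll1 were at 0 in all 4.

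Of 63 ribosomal protein genes tested, 10 were higher in the Id2 knockout with TMM scaling and 1 with DESeq2 size factors. Rpsa, a protein of the small ribosomal subunit, was at 5767 and 5220 CPM in the Id2 knockout, 1509 and 634 CPM in the Tcf7 knockout and 4130, 4323 and 2959 CPM in wild type (log2 fold change 2.35 ± 0.40, adjusted p = 9.18e-06). The Tcf7 knockout libraries were the low ones, and against wild type Rpsa was lower there (adjusted p = 0.0012). Ribosomal protein genes together made up 9.83% (9.69 to 9.98) and 9.68% (9.56 to 9.8) of Id2 knockout counts, 4.84% (4.67 to 5.01) and 3.07% (2.92 to 3.22) of Tcf7 knockout counts and 5.72% to 6.97% in wild type. None of the 63 fell, 53 were not called, and 60 were fitted above 0, with a median of 1.31 against 0.43 over all genes. With DESeq2 size factors the median was 0.88 against 0.0039, 58 were above 0 and 1 was called, and without the second Tcf7 knockout library 1 was called with a median of 1.16 against 0.65. This list was added after the data were seen. Gas5, a host RNA of small nucleolar RNAs that accumulates when translation is slowed, was at 3887 and 3683 against 1061 and 674 CPM (4.35-fold, adjusted p = 0.00105; 0.0802 without the second Tcf7 knockout library). Ncl, the nucleolar protein nucleolin, was at 1975 and 2491 against 557.5 and 396 CPM (4.66-fold, adjusted p = 0.00204). Eef1b2, a translation elongation factor, was at 2688 and 3087 against 802 and 595 CPM (4.12-fold, adjusted p = 0.00291). The calls of Ncl and Eef1b2 were lost without the second Id2 knockout library, and also without the second Tcf7 knockout library. For Gas5, Ncl and Eef1b2, chosen after their values were seen, wild type lay between the knockouts. Depth differed in the same direction, and with the Id2 knockout libraries thinned to 49365 counts 3 ribosomal protein genes were called, with a median of 1.16 against 0.084 over all genes.

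Genes at 0 in both Tcf7 knockout libraries included several enzymes. Srm, spermidine synthase, was at 297 and 587 CPM in the Id2 knockout (at least 18.2-fold higher, adjusted p = 0.00366) and Atic, of purine synthesis, at 435 and 293 CPM (at least 15.1-fold, adjusted p = 0.00155). Vezf1, a zinc finger factor, was at 240 and 317 CPM (at least 11.5-fold, adjusted p = 0.00118), and Cbx1, a heterochromatin protein, at 214.5 and 265 CPM (at least 9.92-fold, adjusted p = 0.00283). Wild-type CILP held counts of all 4 in each library. Of the 4 leave-one-out fits, the call held in 3 for Atic and Vezf1, in 2 for Cbx1 and in 1 for Srm. Cbx1 and Srm lost it without the second Tcf7 knockout library. Add3, Prmt3, Nt5c2, Cpne2 and Myl10 had the same pattern, with bounds from 7.08 to 11.5-fold, and none of these 5 kept its call in a leave-one-out fit.

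Cell cycle genes gave 3 calls of 27, higher in the Id2 knockout, and a median of 0.43, as over all genes. With DESeq2 size factors 2 were higher and 1 lower (median −0.15, against 0.0039 over all genes), and without the first Tcf7 knockout library 1 was higher and 1 lower (median −0.04 against 1.60). Stmn1, stathmin, which dividing cells use to reshape microtubules, was at 568 and 447 against 13.6 and 39.6 CPM (ratio 20.6, counting interval 6.94 to 100.8, adjusted p = 0.0014). Mcm6 and Mcm7, subunits of the replicative helicase, were at 511 and 168 against 40.8 and 0 CPM (ratio 13, counting interval 4.33 to 63.7, adjusted p = 0.0113) and at 536 and 531 against 81.6 and 79.3 CPM (6.56-fold, adjusted p = 0.0124). Calls select for separation (96 of the 105 called genes), and all 3 separated the knockouts. Wild-type Mcm7 (290 to 382 CPM) lay between them, Stmn1 (20.7 to 150 CPM) overlapped the Tcf7 knockout and Mcm6 (145 to 286 CPM) the Id2 knockout. Without the first Tcf7 knockout library Stmn1 was at an adjusted p of 0.097, Mcm6 held in 2 and Mcm7 in none of the 4 leave-one-out fits, and limma-voom called 1 of the list.

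Stem and progenitor genes gave 2 calls of 14, both higher. Bcl11a, a factor of lymphoid and dendritic progenitors, was at 467 and 829 against 40.8 and 139 CPM (7.51-fold, adjusted p = 0.00442), and Myb, needed by progenitors for growth, at 1148 and 1420 against 68 and 396 CPM (5.69-fold, adjusted p = 0.0118). Both were also above wild type in the Id2 knockout (adjusted p = 0.00325 and 0.0126). The calls between knockouts did not hold without the second Id2 knockout library (0.165 and 0.151) or the first Tcf7 knockout library (0.211 and 0.365). Gata2, of mast and stem cells, was at 631 and 740 against 13.6 and 198 CPM (adjusted p = 0.38), and Kit, the stem cell factor receptor, at 732 and 573 against 789 and 119 CPM (adjusted p = 0.859). The basophil and mast cell protease gene Prss34 was at 2341 and 675 CPM against 0 and 0 (at least 62.3-fold, adjusted p = 0.00495). Mcpt8, the basophil protease, was at 3313 and 1592 against 136 and 0 CPM, and 3850, 0 and 0 CPM in wild type. Mcpt8 belongs to the mast cell and basophil list whose share is given above, so its match with that share was built in. Summed over that list, CPM were 4543 and 3352 in the Id2 knockout. The share also reached 0.479% in a wild-type library. None of the 5 genes of that list tested was called, and Prss34 kept its call in 1 of 4 leave-one-out fits.

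**Figure D4:**
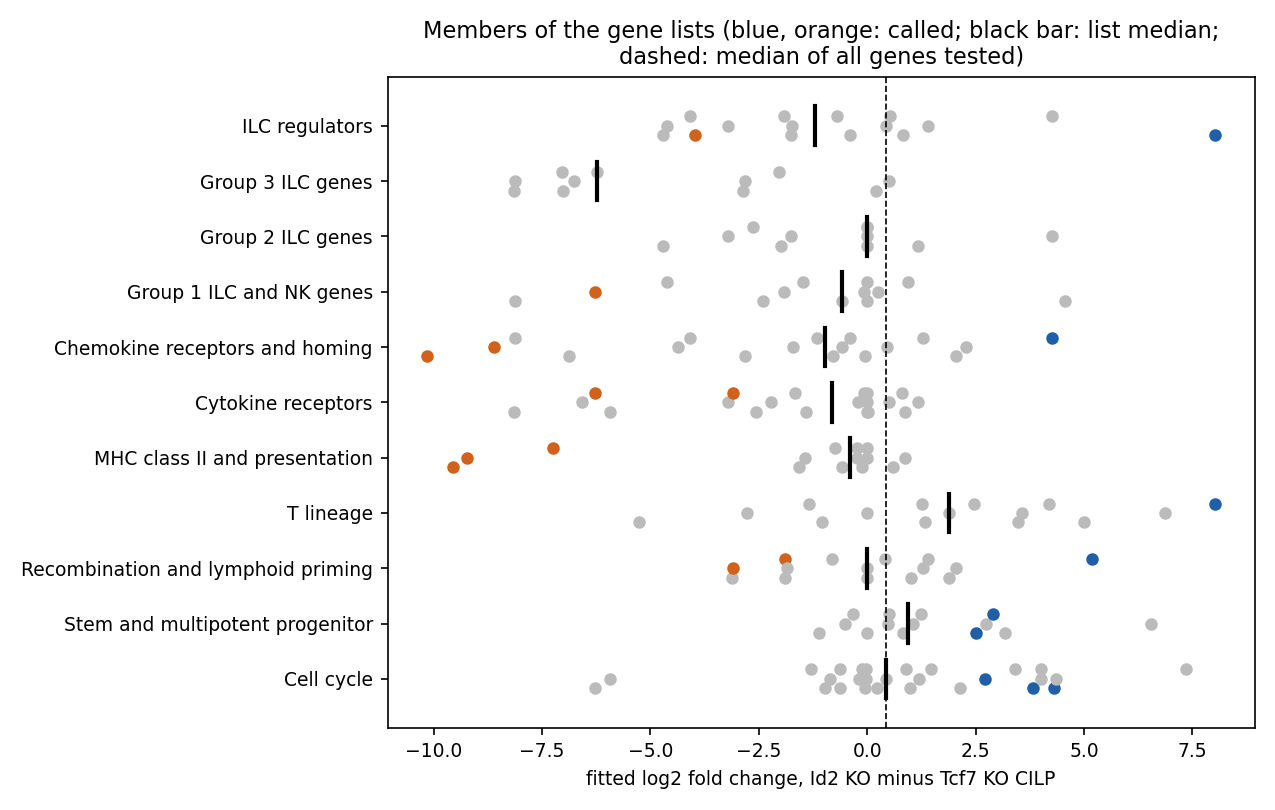
Fitted log2 fold change (Id2 knockout minus Tcf7 knockout CILP) of the tested members of 11 gene lists, with called genes in blue (higher) or orange (lower), list medians as black bars and the median of all genes, 0.43, dashed. Group 3 ILC genes have a median of −6.24 with no call, and cell cycle genes a median of 0.43 with 3 calls.

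Some genes lower in the Id2 knockout came from the second Tcf7 knockout library. Siglech, a receptor of plasmacytoid dendritic cells, was at 476 CPM there and at 0 in the other 3 (adjusted p = 1.12e-07), and without that library it was at 0 in all that remained. Ltf, the granule protein lactoferrin, was at 495.5 CPM there and at 0 in the other 3 (adjusted p = 0.00929). Ly6c2, a monocyte surface protein, was at 495.5 CPM there and at 0, 23.3 and 0 CPM elsewhere (adjusted p = 0.036). Irf8, a dendritic and B cell factor, was at 575 CPM there, 136 CPM in the first Tcf7 knockout library and 151 and 37.3 CPM in the Id2 knockout (adjusted p = 0.0202; 0.767 without that library). Of the dendritic list 3 of 12 tested fell, Siglech, Irf8 and Xcr1, and without that library 1 did and 1 rose. Of the myeloid list 2 of 14 fell, Ltf and Ly6c2, and neither kept its call without that library. Lyz2 and Cebpe were at 0 in all 4. For the same 14 genes limma-voom called 2 higher and 0 lower, and DESeq2 called 0 in either direction.

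The same genotypes were compared in CLP, the population before CILP. Id2 knockout CLP (2 libraries) and Tcf7 knockout CLP (3 libraries) gave no called gene (0%) with edgeR, 358 genes at an unadjusted p under 0.05, none with DESeq2 and 12 with limma-voom. The difference between the contrast in CILP and that in CLP was tested itself, and 56 genes passed (0.666%), 24 with a higher and 32 with a lower difference in CILP. With DESeq2 size factors the split was 12 and 40. Of the 105 genes called in CILP, 45 passed the test of the difference. That test reused the knockout CILP libraries that picked the 105 genes, so an excess over the share of all genes was built in. Ccr2 was at 29.7 and 196 CPM in Id2 knockout CLP and 14.3, 49 and 51.9 CPM in Tcf7 knockout CLP, so the 2 CILP libraries without Ccr2 came from a genotype whose CLP held it. Dntt was at 2088 and 1952 CPM in Id2 knockout CLP and higher, at 5472, 3927 and 3678 CPM, in Tcf7 knockout CLP, the opposite order to CILP. H2-Aa was at 66.9 and 585 against 28.7, 157 and 57.1 CPM in CLP, and H2-Eb1 at 96.6 and 561 against 0, 39.2 and 62.3 CPM, so class II transcripts were present in Id2 knockout CLP. Il7r was near even in CLP, at 1107 and 1187 against 904, 976 and 862 CPM. The differences between CILP and CLP had adjusted p-values of 2.38e-10 for Ccr2, 7.59e-09 for Dntt, 9.89e-07 for H2-Aa, 7.43e-06 for H2-Eb1 and 4.77e-04 for Il7r. Gfm1, a mitochondrial elongation factor, passed for the difference (adjusted p = 0.0432) without being called in CILP (adjusted p = 0.183).

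**Figure D5:**
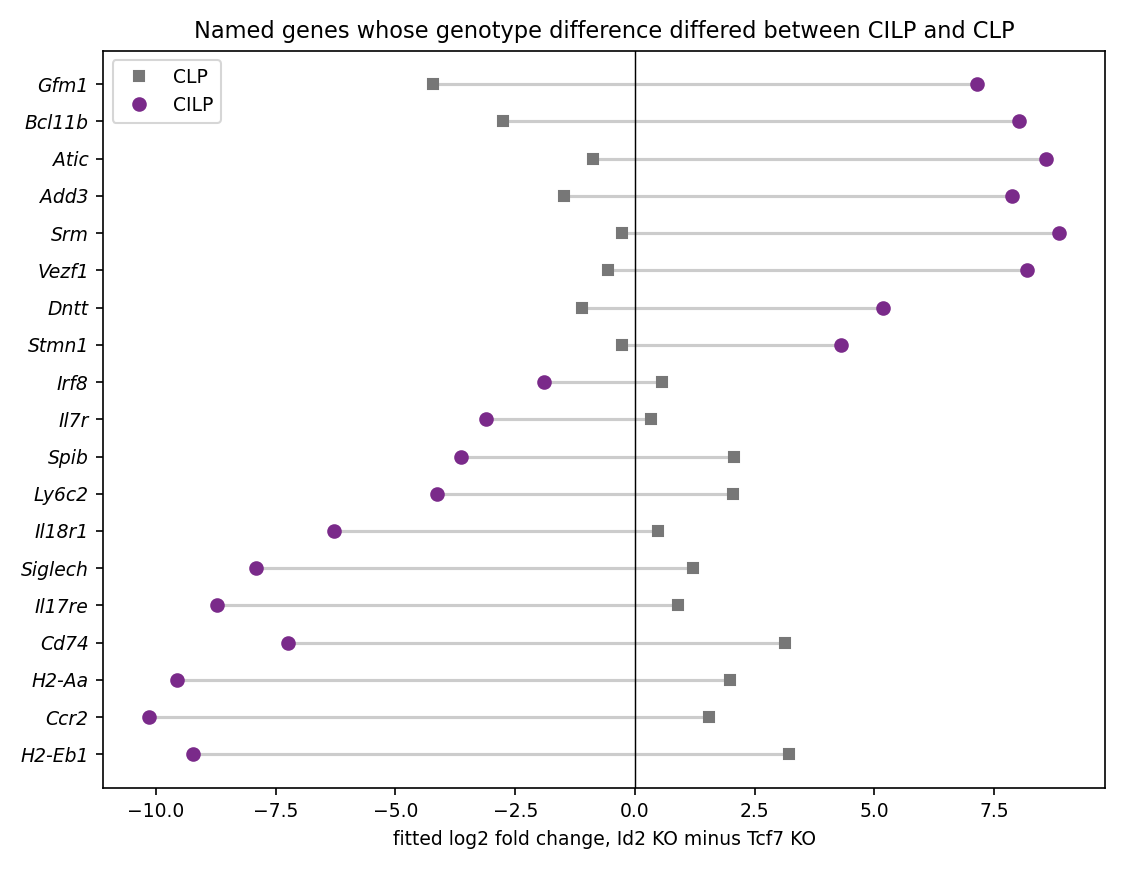
Fitted log2 fold change (Id2 knockout minus Tcf7 knockout) in CILP (circles) and in CLP (squares) for the 19 named genes whose difference between the populations passed. Ccr2, H2-Aa and H2-Eb1 lie far below 0 in CILP and above 0 in CLP, and Dntt lies above 0 in CILP and below 0 in CLP.

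Each knockout was also set beside the same 3 wild-type CILP libraries, which both comparisons share. Against wild type, 84 genes were called in the Id2 knockout (1.00%) and 63 in the Tcf7 knockout (0.750%). Without the second Tcf7 knockout library the 63 became 13, of which 10 were shared, and without the first or the second Id2 knockout library the 84 became 25 or 32. With DESeq2 size factors the share called higher went from 54.8% to 43.8% in the Id2 knockout and from 69.8% to 83.3% in the Tcf7 knockout. Of the 48 genes lower in the Id2 than the Tcf7 knockout, 18 were called against wild type in the Id2 knockout and 11 in the Tcf7 knockout. Of the 57 genes higher, 8 and 10 were. These counts reuse the knockout libraries that picked the genes, so an excess over the shares of all genes was built in. S100a4, Il18r1 and H2-Aa had log2 fold changes against wild type of −5.34, −6.49 and −7.45 in the Id2 knockout (adjusted p = 3.01e-04, 2.92e-06 and 0.00152) and 1.25, −0.21 and 2.10 in the Tcf7 knockout (0.485, 0.982 and 0.296). Dntt was called in both, at 1.62 in the Id2 knockout (adjusted p = 0.034) and −3.56 in the Tcf7 knockout (adjusted p = 0.0247). Icos, a costimulatory receptor of ILC, was also called in both and in the same direction, at −5.71 (adjusted p = 1.14e-06) and −3.07 (adjusted p = 0.0268), and did not differ between the knockouts by the test (31.6 and 0 against 109 and 79.3 CPM, adjusted p = 0.172). Of the 105 genes, 60 were called against wild type in neither knockout.

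The series holds 2 more Tcf7 knockout CILP libraries, in batch 2, where no Id2 knockout was made. Their CPM, by plain totals of 44089 and 432561 counts, are given beside those above. Ccr2 was at 386 and 1325 CPM, H2-Aa at 22.7 and 455 CPM, Il18r1 at 45.4 and 444 CPM and Bcl11b at 0 and 20.8 CPM. For these 4 genes both libraries were on the Tcf7 knockout side of the batch 1 Id2 knockout, although H2-Aa at 22.7 CPM was 1 count. Other genes were not. Genes at 0 in both batch 1 Tcf7 knockout libraries had counts in batch 2, with Vezf1 at 45.4 and 270.5 CPM, Srm at 90.7 and 176 CPM, Atic at 136 and 20.8 CPM, Cbx1 at 22.7 and 157 CPM, Nt5c2 at 386 and 71.7 CPM and Prss34 at 45.4 and 263.5 CPM. Asb2, Cacna1g, Psd2, Klrb1b, Xcr1, Tnfrsf25 and Il17re were at 0 in the shallower batch 2 library, as in the Id2 knockout, and at 46.2 to 203 CPM in the deeper one. Dntt was at 544 and 9.25 CPM and Il7r at 68 and 1468 CPM, which spanned the Id2 knockout values. Fitted over both batches with a batch term, Ccr2 was the single gene called, and the adjusted p was 0.27 for Il18r1, 0.369 for H2-Aa, 0.675 for Dntt and 1 for Rpsa.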

How the data were processed

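Values were gene counts per library, deposited by the authors as a batch 1 table with Entrez ids. Per the submitters' processing notes, the tools were CASAVA 1.8.2, featureCounts, limma and edgeR 3.8.2 and 3.22.0, with build mm10, and no aligner is named there. Molecular identifiers are not stated, so counts may include amplified copies. Of 27179 genes, 25275 (92.99%) matched RefSeq (GRCm38.p6), and 1279 on X or Y were left out. All 22 cell libraries of batch 1 were fitted in 10 groups (12 residual degrees of freedom) with edgeR 4.0.16 in R 4.3.3 (robust quasi-likelihood, TMM; low-count filter with a minimum count of 10 and total of 15), leaving 8403 genes. P-values were adjusted by Benjamini-Hochberg over all of them (threshold 0.05). limma 3.58.1 and DESeq2 1.42.0 served as alternatives. The fits were tested on simulated data. Lower bounds use 3 counts over the group at 0.

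Named genes were the targets and markers, 10 regulators, up to 12 called genes per direction with the largest folds, a mean of 20 CPM or more in the group with the higher level, and no overlap (unnamed models, ribosomal and mitochondrial genes passed over), the members of each list with the smallest p (2 to 4 per list), and up to 6 genes called in the CILP minus CLP difference. Members and lists were chosen with earlier results of these data known. Some genes are not reported here and were left out of the lists. Replicate numbers follow accession order and pair no samples.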

Additional observations from a re-analysis of the deposited data

Results flagged for a closer look

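For 19 named genes the log2 difference between Id2 and Tcf7 knockout was not the same in CILP and CLP, by the test of that difference itself (edgeR, adjusted p under 0.05); values below are the CILP contrast minus the CLP contrast. Genes with no count in a group have fitted values that depend on the prior count. ILC and antigen presentation genes were more negative in CILP: Ccr2 by −11.70, Il18r1 by −6.76, Il7r by −3.43, Il17re by −9.63, H2-Aa by −11.55, H2-Eb1 by −12.44 and Cd74 by −10.38. Genes of myeloid, dendritic and B cells were also more negative, Siglech by −9.11, Ly6c2 by −6.19, Spib by −5.70 and Irf8 by −2.47, and the second Tcf7 knockout CILP library carried the highest level of each among the 4 CILP libraries compared. The T lineage factor Bcl11b was more positive by 10.79, the polymerase Dntt by 6.29 and the cell cycle gene Stmn1 by 4.56. Metabolic and other genes were more positive as well, Srm by 9.13, Atic by 9.46, Vezf1 by 8.75, Add3 by 9.35 and Gfm1 by 11.36.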

How the results depend on the processing

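No paired analysis was possible because the labels give no replicate numbers. Between the knockouts in CILP (105 genes, 57 higher and 48 lower), DESeq2 called 114 lower, edgeR with DESeq2 size factors 23 higher, a filter of 10 counts in 2 of the 4 libraries 51 (21 and 30), and a fit of only the 4 libraries 0 (0 higher and 0 lower; 371 at an unadjusted p under 0.05). Both batches with a batch term gave 1 (0 higher, 1 lower), and thinning, chosen after seeing the data, 58 (30 and 28). Leaving out 1 library gave 26 to 70 genes, 17 to 36 higher and 9 to 34 lower; the fewest came without the second Id2 knockout library. In CLP, limma-voom called 12, keeping X and Y genes 2, and leave-one-out fits 0 to 1. The CILP minus CLP difference (56) gave 108 with DESeq2, 21 with the stricter filter, 1 with both batches and 16 to 71 leaving out 1 library. Id2 knockout against wild type (84) gave 253 with limma-voom, 38 with the stricter filter, 6 with both batches, 44 thinned and 25 to 60 leaving out 1 library. Tcf7 knockout against wild type (63) gave 137 with DESeq2, 20 with limma-voom, 41 without a filter, 9 with the stricter filter, 31 with both batches and 13 (without the second Tcf7 knockout library) to 95 (without the first) leaving out 1 library.

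Directions reversed for a few genes when 1 library was left out, with log2 values from −7.91 to 3.88 for Ly6c2, −3.77 to 0.19 for Ctsb, −3.15 to 9.80 for Borcs5 and −7.69 to 1.94 for Ppp1r16b. For Spib, CILP minus CLP difference of the Id2 minus Tcf7 contrast, they ran from −6.75 to 1.91, and for Ly6c2, CILP minus CLP difference of the Id2 minus Tcf7 contrast, from −9.95 to 1.83. For Spib, Tcf7 knockout minus wild-type CILP, they ran from −2.37 to 7.61, for Rsad2, Tcf7 knockout minus wild-type CILP, from −3.15 to 6.59, and for Siglech, Tcf7 knockout minus wild-type CILP, from −2.30 to 7.96. The cause was not tested. Depth limits the bounds of genes at 0 in the Tcf7 knockout most, since its libraries held 49365 and 63853 counts.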
